A study of Homo sapiens with 4 samples.

Results

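The 10 genes CCND1, CCND2, CCND3, CCNE1, CCNE2, CDK4, CDK6, CDKN1B, CDKN2A and CDKN2B encode the cyclins, cyclin-dependent kinases (CDKs) and CDK inhibitors that act on the way from G1 into S phase. They were taken by gene name from a table of 58735 genes, and every name was found. The RNA-seq data comprised 4 libraries, 1 for each growth form (adherent or spheroid) of each of the lines HCT116 and LOVO. Both are established human colorectal cancer cell lines, labelled WT in genotype. The adherent cells are labelled as untreated and grew in RPMI-1640 with serum. The spheroids carry a treatment label of 1 mg/ml with no drug named. The study's methods name oxaliplatin, a platinum drug that crosslinks DNA, with the dose in another unit, and a serum-free medium with B27, N2, EGF and bFGF in ultralow attachment dishes. Attachment, medium, serum and drug therefore differ together between adherent cells and spheroids and cannot be told apart.

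The G1 machinery is built around the retinoblastoma protein, which holds E2F transcription factors inactive. D-type cyclins respond to growth factors and attachment and pair with CDK4 or CDK6, and E-type cyclins pair with CDK2. Both kinds of complex phosphorylate the retinoblastoma protein, which frees E2F to switch on genes of DNA replication. The INK4 proteins, p16INK4a from CDKN2A and p15INK4b from CDKN2B, bind CDK4 and CDK6, whereas p27Kip1 from CDKN1B binds cyclin-CDK2 complexes. Much of this control acts on protein stability and phosphorylation, which mRNA levels do not show. In colorectal cancer, loss of APC raises WNT signalling, and CCND1 is a known target of that pathway.

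The libraries held between 15483569 and 20429147 reads on genes. Values are FPKM, the fragments counted on a gene scaled to its length and to a library size, and the reads behind each value were recovered from them. In adherent LOVO cells that size was 0.907 times the reads on genes, so it was not a plain total of reads. With 1 library per group there is no replicate error within a line. The 95% intervals given are exact counting intervals, which cover counting error only and compare libraries, not conditions. In bulk RNA, fewer cells of a type and less RNA per cell cannot be told apart. Mitochondrial genes took 6.77% and 11.1% of the reads in adherent HCT116 cells and HCT116 spheroids, and 3.65% and 3.97% in adherent LOVO cells and LOVO spheroids. Of 9 colorectal epithelial markers, 6 and 7 reached 1 FPKM in the HCT116 libraries, adherent first, and 3 and 4 in the LOVO libraries. In both libraries labelled LOVO, the intestinal genes CDX2 and VIL1 had 0 reads, and CDH1, the epithelial cadherin, had 13 reads in adherent cells and 1 in spheroids. In HCT116, adherent first, CDX2 had 323 and 216 reads and CDH1 had 3920 and 3227. VIL1 had only 6 and 11 reads there, and LGALS4 had 3 to 5 in all 4 libraries, so these genes do not set the lines apart. EPCAM, another epithelial marker, had 42 and 76 reads in LOVO, adherent first, and 4397 and 3356 in HCT116. The keratin KRT19 was at 14.9 and 4.85 FPKM in LOVO and at 808 and 543 in HCT116. The keratins KRT8 and KRT18 were present in LOVO, at 81.6 to 189 FPKM. The LOVO libraries also held 10.4 and 9.97 FPKM of DCN, a fibroblast gene with 0 reads in HCT116. Of 5 fibroblast markers, 2 and 3 reached 1 FPKM in the LOVO libraries, and COL1A2 had 0 reads and 1 read. COL3A1 was at 0.811 and 5.13 FPKM in LOVO, adherent first, and at 0.0072 and 0.358 in HCT116. COL1A1 was at 9.89 and 6.10 FPKM in LOVO and at 5.51 and 15.5 in HCT116. The summed FPKM of the list was 5.53 and 15.9 in HCT116 and 21.1 and 21.2 in LOVO. Of 3 endothelial markers, 1 and 2 reached 1 FPKM in the LOVO libraries, adherent first, and 0 in HCT116. PECAM1 had 6.35 FPKM in LOVO spheroids and at most 0.391 in the other libraries, and VWF had at most 0.332 in all 4. CDH5 had 1.05 and 1.42 FPKM in the LOVO libraries and at most 0.0294 in HCT116. PTPRC, the pan-leukocyte gene, had at most 2 reads, and CD14 had 0.148 to 1.79 FPKM. Every comparison below that uses the LOVO libraries, between the lines, within LOVO or over both lines, rests on this. The line label of these libraries is not borne out in full by the markers, and the part of this in the results was not tested.

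In all 4 libraries, 9 of the 10 genes were expressed, and CCND2 was at or near 0. The 9 genes had a mean over the libraries of at least 1 FPKM, as did 14429 genes of the table, which were the ones compared. In adherent HCT116 cells the order of levels per length was CCND1, CDK4, CDKN1B, CCND3, CDK6, CDKN2A, CCNE1, CDKN2B and CCNE2, where the intervals of CDK6, CDKN2A and CCNE1 overlapped from neighbour to neighbour. In HCT116 spheroids the order was CCND1, CDK4, CDKN1B, CCNE1, CDKN2B, CDK6, CDKN2A, CCND3 and CCNE2, with overlapping intervals from CDK4 to CCNE1, between CDKN2B and CDK6, and between CDKN2A and CCND3. In adherent LOVO cells it was CDKN2A, CDK4, CDKN1B, CCND1, CCND3, CDK6, CDKN2B, CCNE1 and CCNE2, with no overlap between neighbours. CCND1 led in both HCT116 libraries and CDKN2A led in both LOVO libraries. In LOVO spheroids CDKN2A was followed by CCND1, CDKN2B, CDKN1B, CDK4 and CCND3, which lay between 24.1 and 27.3 FPKM with overlapping intervals between neighbours. CCNE2 was the lowest of the 9 genes in each library.

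CCND1 was by far the main D-type cyclin of HCT116, whereas CCND1 and CCND3 were near each other in LOVO. CCND1, cyclin D1, lies on the plus strand of chromosome 11 from 69641087 to 69654474. Its FPKM was 158 in adherent and 121 in spheroid HCT116, and 33.7 in adherent and 27.3 in spheroid LOVO. Both LOVO libraries were below both HCT116 libraries, and the spheroids were below the adherent cells in each line. Spheroids against adherent cells gave a log2 ratio of -0.39 (interval -0.43 to -0.36) in HCT116 and -0.30 (-0.38 to -0.23) in LOVO. Of its 4830 exonic bases, 497 overlap LTO1 on the opposite strand, which had 2.91 to 3.59 FPKM.

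CCND3, cyclin D3, lies on the minus strand of chromosome 6 from 41934933 to 42050357 and has 23 annotated transcripts. Its FPKM was 11.6 in adherent and 5.99 in spheroid HCT116, and 24.3 in adherent and 24.1 in spheroid LOVO. The HCT116 spheroids were the lowest library, with a log2 ratio to adherent cells of -0.96 (interval -1.10 to -0.81). In LOVO the ratio was -0.01 (-0.09 to 0.07), so by FPKM no difference was detectable beyond counting error. As TPM the log2 difference was 0.194, outside that interval, so this result depends on the scaling between libraries. CCND3 transcripts share a stretch of at least 50 bases with AC020916.1. That gene was at 1.66 and 1.14 FPKM in HCT116 and at 1.79 and 3.32 in LOVO, adherent first. The part of such reads in the CCND3 values was not tested. CCND2, cyclin D2, on chromosome 12 from 4273772 to 4305350, had 8 reads in HCT116 spheroids and 0 in the other 3 libraries. Its level in HCT116 spheroids was 0.0665 FPKM (interval 0.0287 to 0.131). The exact 95% upper limits for the libraries with 0 reads were 0.0253 FPKM in adherent HCT116, 0.0287 in adherent LOVO and 0.0256 in spheroid LOVO.

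Summed over the 3 D-type cyclins, the level was 170 FPKM in adherent and 127 in spheroid HCT116, and 58.0 in adherent and 51.4 in spheroid LOVO. CCND1 made up 93.2% and 95.2% of this sum in the HCT116 libraries, adherent first, and 58.1% and 53.1% in the LOVO libraries. CCND3 made up 6.84%, 4.73%, 41.9% and 46.9% in the same order of libraries. Such shares within a library do not depend on the scaling between libraries.

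**Figure D1:**
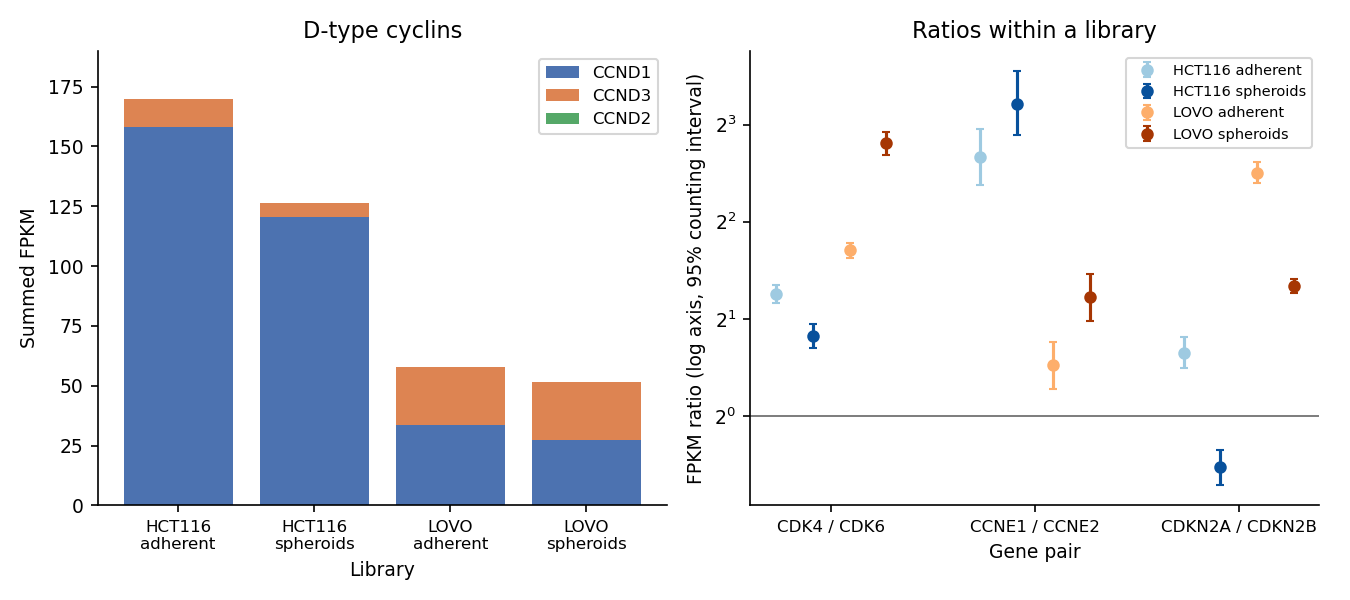
D-type cyclin FPKM stacked by gene, and the CDK4 to CDK6, CCNE1 to CCNE2 and CDKN2A to CDKN2B ratios of FPKM, in each library, with 95% exact counting intervals on the ratios. CCND1 fills 93.2% and 95.2% of the D-type cyclin bar in HCT116 against 58.1% and 53.1% in LOVO, and the CDK4 to CDK6 ratio is highest, at 7.003, in LOVO spheroids.

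Both kinases that pair with D-type cyclins had lower levels in spheroids than in adherent cells of each line. For CDK4 the intervals of the lines overlapped, and for CDK6 the decrease was larger in LOVO. CDK4 lies on the minus strand of chromosome 12 from 57747727 to 57756013. Its FPKM was 24.8 in adherent and 13.9 in spheroid HCT116, and 48.1 in adherent and 25.04 in spheroid LOVO. As a log2 ratio, spheroids over adherent cells stood at -0.84 (interval -0.96 to -0.71) in HCT116 and -0.94 (-1.03 to -0.85) in LOVO. Of the 3168 exonic bases of CDK4, 1369 overlap TSPAN31 on the opposite strand, and whether the counting used strand is not given in the sources used here. TSPAN31 was higher in the spheroids than in the adherent cells, at 2.56 and 3.04 FPKM in HCT116 and 3.74 and 5.39 FPKM in LOVO, adherent first. CDK4 transcripts also share a stretch of at least 50 bases with transcripts of ATP2A2 and CX3CL1. ATP2A2 was at 39.0 and 19.7 FPKM in HCT116 and at 29.9 and 30.3 in LOVO, adherent first, and CX3CL1 was at most 0.0332. The part of such reads in the CDK4 values was not tested.

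CDK6 lies on the minus strand of chromosome 7 from 92604921 to 92836594. Its FPKM was 10.4 in adherent and 7.85 in spheroid HCT116, and 14.8 in adherent and 3.58 in spheroid LOVO. LOVO held both the highest and the lowest library, and its log2 spheroid to adherent ratio was -2.04 (interval -2.15 to -1.94), against -0.41 (-0.50 to -0.32) in HCT116. CDK6 was at the 1.34th percentile of all genes compared in LOVO, ordered by log2 fold change.

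The CDK4 to CDK6 ratio of FPKM was 2.38 (interval 2.24 to 2.54) in adherent HCT116 cells and 1.77 (1.62 to 1.93) in HCT116 spheroids. It was 3.26 (3.09 to 3.43) in adherent LOVO cells and 7.003 (6.45 to 7.61) in LOVO spheroids. The ratio was lower in the spheroids of HCT116 and higher in those of LOVO, and within each line the intervals did not overlap. Whether the lines differ in this could not be tested with 1 library per group.

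Among the inhibitors, CDKN2B was higher in the spheroids of both lines, CDKN1B was lower in both, and CDKN2A was lower in HCT116 spheroids. In LOVO, CDKN2A was within counting error by FPKM, with a sign that depended on the scaling. CDKN1B lies on the plus strand of chromosome 12 from 12715058 to 12722371 and shares no exonic base with another gene. Its FPKM was 15.5 in adherent and 12.6 in spheroid HCT116, and 41.9 in adherent and 25.4 in spheroid LOVO. Both LOVO libraries were above both HCT116 libraries. The log2 spheroid to adherent ratio was -0.30 (interval -0.45 to -0.14) in HCT116 and -0.72 (-0.82 to -0.62) in LOVO.

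CDKN2A and CDKN2B are neighbours on the minus strand of chromosome 9, from 21967753 to 21995301 and from 22002903 to 22009363. CDKN2A has 14 annotated transcripts with 13 different starts, and its value merges those of p16INK4a with those of p14ARF, which is read in another frame and acts on MDM2. The FPKM of CDKN2A was 9.95 in adherent and 6.17 in spheroid HCT116, and 65.2 in adherent and 65.1 in spheroid LOVO. Both LOVO libraries were far above both HCT116 libraries. Spheroid over adherent levels had a log2 ratio of -0.69 (interval -0.86 to -0.52) in HCT116 and -0.00 (-0.06 to 0.05) in LOVO. As TPM the log2 difference in LOVO was 0.202, outside that interval. Of its 4329 exonic bases, 341 overlap the antisense gene CDKN2B-AS1, which had 0.0668 to 0.737 FPKM.

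The FPKM of CDKN2B was 6.34 in adherent and 8.92 in spheroid HCT116, and 11.5 in adherent and 25.8 in spheroid LOVO. The LOVO spheroids were the highest library, and the spheroids were above the adherent cells in each line. On the log2 scale the spheroid to adherent ratio was 0.49 (interval 0.32 to 0.66) in HCT116 and 1.17 (1.05 to 1.29) in LOVO. The CDKN2A to CDKN2B ratio of FPKM was 1.57 (interval 1.41 to 1.75) in adherent HCT116 cells and 0.692 (0.611 to 0.783) in HCT116 spheroids. It was 5.68 (5.28 to 6.12) in adherent LOVO cells and 2.52 (2.40 to 2.65) in LOVO spheroids. On the log2 scale the ratio was lower in the spheroids by a difference of -1.18 in HCT116 and -1.17 in LOVO. Transcripts of these genes share a stretch of at least 50 bases, so reads from it could be split between them, and how such reads were counted is not given in the sources used here.

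CCNE1 and CDKN2B were the members with higher levels in the spheroids of both lines, and CDKN2A is the neighbour of CDKN2B that did not share this. The 150 bases upstream of their RefSeq starts are printed here 5′ to 3′ from RefSeq, build GRCh38.p14, with the GC box, the letters GGGCGG or CCGCCC that SP1-type factors bind, in capitals. They are chr19:29811841-29811990 on the plus strand, and chr9:22009306-22009455, chr9:21974858-21975007 and chr9:21995325-21995474 on the minus strand.
CCNE1: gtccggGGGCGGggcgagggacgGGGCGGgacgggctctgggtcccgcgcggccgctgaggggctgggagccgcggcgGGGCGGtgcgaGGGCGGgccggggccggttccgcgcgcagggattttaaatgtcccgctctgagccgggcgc
CDKN2B: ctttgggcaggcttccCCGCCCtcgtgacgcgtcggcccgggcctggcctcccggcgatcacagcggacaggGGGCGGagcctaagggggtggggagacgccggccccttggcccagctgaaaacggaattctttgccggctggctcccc
CDKN2A, downstream start: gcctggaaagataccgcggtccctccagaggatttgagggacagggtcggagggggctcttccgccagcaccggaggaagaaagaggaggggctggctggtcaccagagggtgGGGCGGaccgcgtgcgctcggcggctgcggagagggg
CDKN2A, upstream start: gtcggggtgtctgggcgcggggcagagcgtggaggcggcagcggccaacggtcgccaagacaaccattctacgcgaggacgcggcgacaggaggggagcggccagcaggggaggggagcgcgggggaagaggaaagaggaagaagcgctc
CCNE1 holds 4 GC boxes in this window, CDKN2B holds 2, the downstream start of CDKN2A holds 1 and its upstream start holds 0. Windows of members with lower spheroid levels held boxes as well, 3 at 1 of the starts of CDK6, 2 at CDK4 and at 1 start of CCND3, and 1 at CDKN1B. The RefSeq table gave 11 such windows for 7 of the 10 genes, of which 8 (72.7%) held a GC box on either strand. Over all 35116 windows of the table, which were not matched for base content or expression, the share was 36.8%. The 300 bases around each start that the table holds were also searched on both strands for the E2F-type letters TTTCCCGC, TTTGGCGC, TTTGCCGC and TTTCGCGC. None of the 11 windows held these letters, against 3.31% of all windows. A match describes the letters alone, and a missing match says only that these letters are not in this window.

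Of the E-type cyclins, CCNE1 was higher in spheroids than in adherent cells of each line, while CCNE2 was lower in LOVO spheroids. CCNE1, cyclin E1, lies on the plus strand of chromosome 19 from 29811898 to 29824308 and shares no exonic base with another gene. Its FPKM was 9.12 in adherent and 11.8 in spheroid HCT116, and 5.62 in adherent and 6.67 in spheroid LOVO. Its log2 ratio, spheroid over adherent, was 0.37 (interval 0.19 to 0.56) in HCT116 and 0.25 (0.01 to 0.49) in LOVO, where the lower bound is close to 0.

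CCNE2, cyclin E2, lies on the minus strand of chromosome 8 from 94879770 to 94896678. Its FPKM was 1.44 in adherent and 1.27 in spheroid HCT116, and 3.92 in adherent and 2.86 in spheroid LOVO, from 94 to 309 reads. Between growth forms the log2 ratio, spheroid over adherent, was -0.18 (interval -0.58 to 0.22) in HCT116, not a detectable difference at this depth, and -0.45 (-0.70 to -0.21) in LOVO. Of its 4397 exonic bases, 1633 overlap INTS8 and AC087752.4 on the opposite strand. INTS8 was higher than CCNE2 in every library, with 5.67 to 12.4 FPKM. The CCNE1 to CCNE2 ratio of FPKM was 6.34 (interval 5.20 to 7.76) and 9.28 (7.43 to 11.7) in the HCT116 libraries, adherent first, and 1.43 (1.21 to 1.70) and 2.33 (1.98 to 2.75) in the LOVO libraries. The HCT116 libraries lay above the LOVO libraries, and the intervals overlapped between growth forms in HCT116 and not in LOVO.

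By the sign of the FPKM difference alone, all 9 members compared went the same way in both lines, 6 of them with both counting intervals off 0. Of the 9 genes compared, 7 had lower levels in both kinds of spheroid and 2 had higher levels, while over all genes compared 35.1% were lower in both, 27.2% higher in both and 35.8% opposite. The sign for CCND3 and CDKN2A in LOVO, at -0.01 and -0.00, turned under other scalings. The study's methods name a log fold change above 2 by edgeR together with a p-value under 0.05. Here the threshold of 2 was set on the log2(FPKM + 1) difference, with no p-value. On this scale, which understates differences of low genes, no member went past 2 in either direction in HCT116 or in LOVO. This rests on the pseudocount for CDK6 in LOVO, which was at -1.78, but at -2.01 with a pseudocount of 0.1 and at -2.04 with 0.01. Over all genes 0.707% went past 2 in HCT116 and 2.75% in LOVO. Past 1 there were 0 members in HCT116, where 5.52% of all genes were, and 2 in LOVO, where 16.4% were. Those were CDKN2B, with a difference of 1.10, and CDK6, with -1.78. The median over the members was -0.37 in HCT116 and -0.29 in LOVO, beside -0.03 and -0.06 over all genes.

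The counting interval of the log2 ratio was off 0 for 8 of 9 members in HCT116 and 7 of 9 in LOVO, and for 62.2% and 74.1% of all genes. In both lines and in the same direction this held for 6 members, against 36.2% of all genes. CCND1, CDK4, CDK6 and CDKN1B were lower, and CCNE1 and CDKN2B were higher. In a fit over all 4 libraries with cell line as a term, the lines stand in for replicates and 1 residual degree of freedom is left. By limma with Benjamini-Hochberg adjustment over the 14429 genes, 0 genes (0%) passed an adjusted p of 0.05 for spheroids against adherent cells, with 1545 at an unadjusted p under 0.05. Of the members, CDK4 had a mean log2 difference of -0.85 (SE 0.24, limma adjusted p = 0.462) and was lower in 2 of 2 lines. CDKN2B had 0.77 (SE 0.28, limma adjusted p = 0.462) and was higher in 2 of 2. CDK6 had -1.07 (SE 0.40, limma adjusted p = 0.464) and was lower in 2 of 2.

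**Figure D2:**
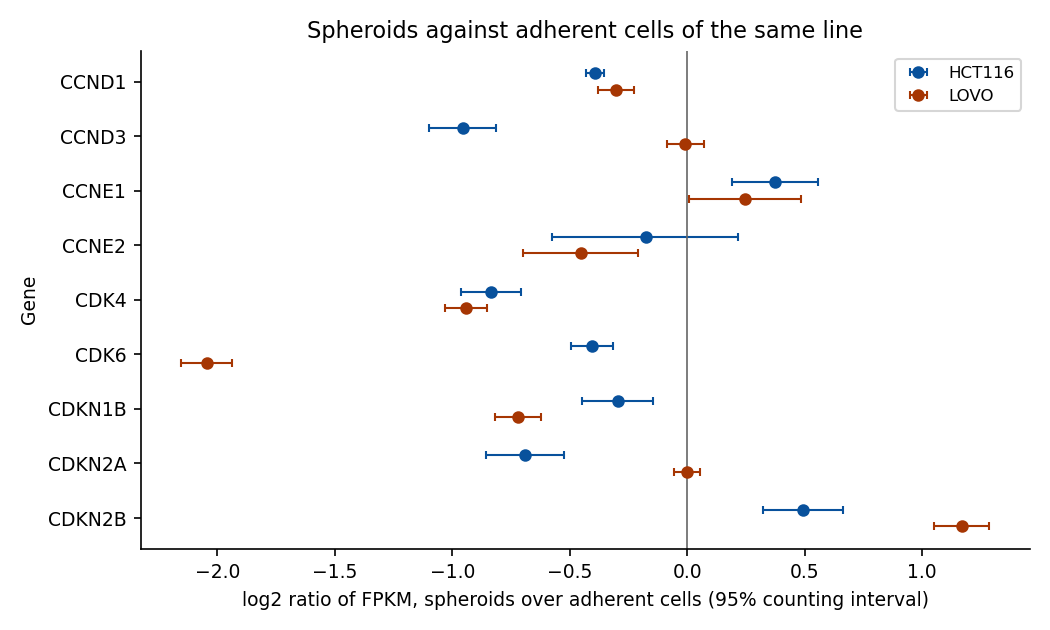
Log2 spheroid to adherent ratio for the 9 members compared, in HCT116 and in LOVO, with 95% exact counting intervals. CDK6 in LOVO lies lowest, at -2.04, CDKN2B lies highest in both lines, and CCND3 and CDKN2A lie near 0 in LOVO.

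Between the lines the widest differences were those of CDKN2A and CCND1. By FPKM, CDKN2A was 6.55-fold higher in LOVO than in HCT116 among adherent cells and 10.5-fold higher among spheroids. CCND1 was 4.70-fold and 4.42-fold higher in HCT116. On the log2(FPKM + 1) scale CDKN2A and CCND1 were the 2 of 9 members past 2 in either growth form, where 10.9% of all genes were past 2 among adherent cells and 10.4% among spheroids. Among spheroids the call depended on the setting. As TPM, CCND1 was at -1.90 and CCND3, at 1.85 otherwise, was at 2.19, and CCND3 was at 2.01 with a pseudocount of 0.01. Past 1 there were 5 members among adherent cells and 4 among spheroids, against 33.8% and 32.7% of all genes. The median over the members was 0.93 and 0.81, beside 0.07 and 0.04 over all genes.

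With growth form as a term, and so with the growth forms standing in for replicates, 4 of 9 members passed the limma test between lines, as did 24.7% of all genes. CDKN2A had a log2 difference of 2.90 (SE 0.28, limma adjusted p = 0.00723) and CCND3 of 1.42 (SE 0.31, limma adjusted p = 0.0340), both higher in LOVO. CDKN1B was also higher there, by 1.17 (SE 0.26, limma adjusted p = 0.0360). CCND1 was lower in LOVO, at -2.15 (SE 0.25, limma adjusted p = 0.0105). CDKN2B, at 1.10 (SE 0.28, limma adjusted p = 0.0505), and CDK4, at 0.87 (SE 0.24, limma adjusted p = 0.0602), did not pass. CDK6 was higher in LOVO among adherent cells and lower among spheroids, with log2(FPKM + 1) differences of 0.47 and -0.95. CCNE1 was at -0.61 and -0.74 and CCNE2 at 1.01 and 0.76, and neither passed. The error behind these p-values joins 1 residual degree of freedom with a median of 3.73 prior degrees of freedom borrowed from all genes. They rest on these 4 libraries only and hold no spread within a group.

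**Figure D3:**
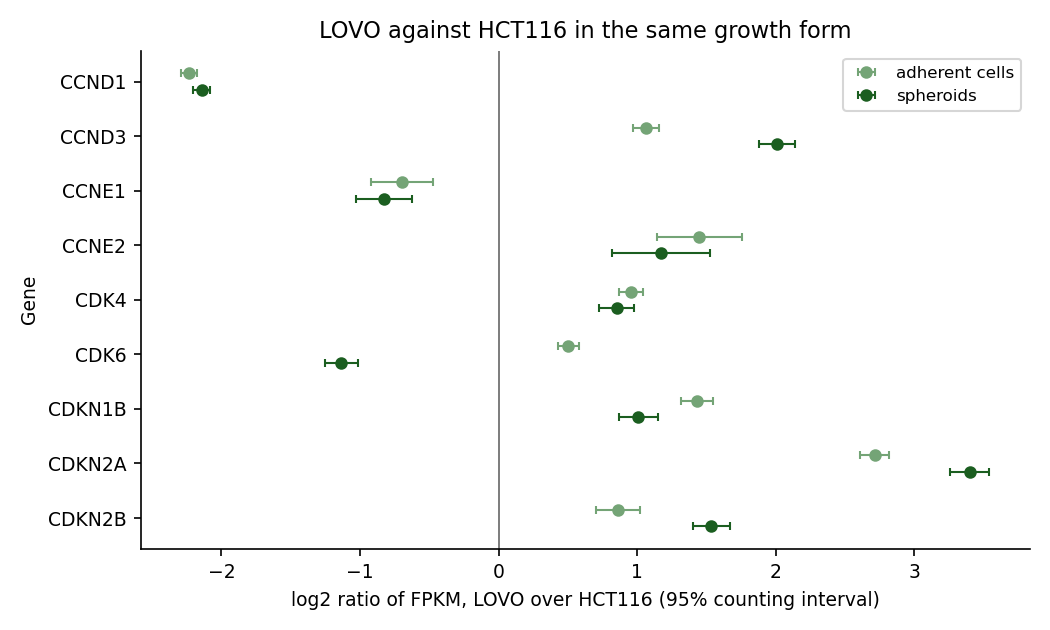
Log2 ratio of FPKM, LOVO over HCT116, for the 9 members compared, among adherent cells and among spheroids, with 95% exact counting intervals. CDKN2A lies highest, at 2.71 and 3.40, CCND1 lowest, at -2.23 and -2.14, and CDK6 is above 0 among adherent cells and below 0 among spheroids.

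The rest of the G1 and S machinery was read from lists of genes by role, on the log2(FPKM + 1) scale. Of all genes compared, 53.4% were lower in HCT116 spheroids and 53.5% in LOVO spheroids, with medians of -0.03 and -0.06, and each count below is to be read against these shares. Past 1 in either direction were 5.52% of all genes in HCT116 and 16.4% in LOVO. Of 16 E2F target genes of DNA replication, 16 were lower in HCT116 spheroids, with 11 below -1 and a median of -1.40. In LOVO spheroids 15 were lower, with 2 below -1 and a median of -0.78. RRM2, a subunit of ribonucleotide reductase, was at 18.5 and 2.62 FPKM in HCT116 and at 17.6 and 8.67 in LOVO, adherent first. CDT1, which loads the replicative helicase, was at 33.1 and 6.42 FPKM in HCT116 and at 40.7 and 30.3 in LOVO. TK1, thymidine kinase, was at 137 and 30.3 FPKM in HCT116 and at 102 and 80.3 in LOVO. Highest of the list by the mean difference of both lines was SLBP, which binds histone mRNA, with differences of -0.57 and 0.20.

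Of 8 mitotic cyclins and kinases, 8 were lower in the spheroids of each line, with medians of -1.91 in HCT116 and -0.89 in LOVO. AURKB, a kinase of chromosome segregation, was at 26.5 and 3.27 FPKM in HCT116 and at 26.4 and 21.6 in LOVO, adherent first. PLK1, the polo-like kinase of mitotic entry, was at 19.7 and 3.50 FPKM in HCT116 and at 33.6 and 10.8 in LOVO, the lowest of the list by the mean of both lines. CCNB2, cyclin B2, was at -2.30 in HCT116 and -0.83 in LOVO, and CCNF, cyclin F, highest of the list, was at -1.34 and -0.20. Next to these lists, the median of -0.37 over the 9 G1 members in HCT116 was nearer 0.

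Of 9 other G1 and S cyclin, CDK and inhibitor genes compared, 9 were lower in HCT116 spheroids and 7 in LOVO spheroids, with medians of -0.65 and -0.40. CCNA2, cyclin A2, a partner of CDK2 in S phase, was lowest, with differences of -2.07 and -0.77. CDKN2D, the INK4 gene of p19INK4d, was at 17.1 and 10.5 FPKM in HCT116, adherent first, and at 2.37 and 8.60 in LOVO, where it was the 1 member of that list above 1. Of 13 pocket protein and E2F genes, 7 were lower in HCT116 spheroids and 8 in LOVO spheroids, with medians of -0.27 and -0.09, a count close to the share over all genes. RBL2, p130, which holds E2F in resting cells, had differences of 0.48 and 0.72, and was highest of the list, and RBL1, p107, had -0.84 and -1.34 and was lowest. RB1, the retinoblastoma gene, lay between them, with 0.00 and -0.71. Of 8 ubiquitin ligase parts that act on G1 cyclins and p27Kip1, 8 were lower in HCT116 spheroids and 7 in LOVO, with medians of -0.18 and -0.31. CKS1B, the cofactor for p27Kip1 recognition, was lowest, with differences of -1.05 and -0.27, and AMBRA1, the receptor for D-type cyclins, was highest, at -0.06 and -0.25.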

How the data were processed

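RNA was sequenced from 4 libraries of HCT116 and LOVO cells, 1 for each line and growth form. The authors deposited a table of FPKM values per gene, the fragments on a gene scaled to its length and to a library size. Aligner, counter and annotation are not given in the sources used here. The submitters' processing notes name the mouse builds GRCm38 and mm10, whereas the table holds human gene IDs with coordinates that match GENCODE 29 on GRCh38, which were used. Reads were recovered as FPKM times gene length divided by the step of the library, and 100% of the values came out whole within 0.01. The library sizes behind the FPKM were 0.998, 1.09, 0.907 and 1.05 times the reads on genes (HCT116 adherent, HCT116 spheroids, LOVO adherent, LOVO spheroids). TMM-style factors were 0.987, 1.10, 0.905 and 1.02 in the same order, so that alternative lies close to the scaling of the FPKM. How the deposited sizes were set cannot be told from the values. The recovered reads were used for counting intervals only, and no count test was run.

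Genes with a mean of at least 1 FPKM over the 4 libraries were compared as differences of log2(FPKM + 1), called past 2. With 1 library per group no test was made within a line. Ratios of FPKM carry 95% exact (Clopper-Pearson) counting intervals. The fit over both lines used limma 3.58.1 in R 4.3.3 (eBayes with trend, Benjamini-Hochberg adjustment, 1 residual degree of freedom). A run on simulated data set the same changes in both lines, so it cannot show how the fit does where the lines differ. Other steps ran in Python 3.11.15 with pandas 2.3.3, numpy 2.4.6 and scipy 1.17.1. Alternatives were pseudocounts of 0.1 and 0.01, a mean of at least 5 FPKM, no filter, TPM, TMM-style scaling, centring on the median, and a threshold of 1.

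All members are named. Of the lists by role, the genes past 2 within a line and the highest and lowest by the mean of both lines are named. The members and lists were chosen with earlier results of these data known, and the CDKN2A to CDKN2B ratio and the GC box search were added after the values were seen. Promoter sequences came from RefSeq.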

Additional observations from a re-analysis of the deposited data

Results flagged for a closer look

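Some values moved in opposite directions in the spheroids of the 2 lines. With 1 library per group these differences between lines were not tested, and only their values are given. The log2(FPKM + 1) difference of spheroids minus adherent cells for CDKN2D was -0.65 in HCT116 and 1.51 in LOVO. For SLBP it was -0.57 in HCT116 and 0.20 in LOVO. The CDK4 to CDK6 ratio of FPKM differed by -0.43 on the log2 scale in HCT116 and by 1.10 in LOVO. The share of CCND1 in the summed D-type cyclin FPKM differed by 2.05 percentage points in HCT116 and by -5.05 in LOVO, and that of CCND3 by -2.11 in HCT116 and by 5.05 in LOVO. These share and ratio values do not depend on the scaling between libraries. Over all genes compared, 35.8% had opposite signs in the 2 lines. Of the 54 genes compared in the lists by role, 9 did, a lower share, with CDKN2D and SLBP among them. Among the other 7, and picked after their values were seen, E2F1 was at -1.32 in HCT116 and 0.30 in LOVO, and CDKN1C, which encodes p57Kip2, was at -0.51 and 0.43.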

How the results depend on the processing

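With a pseudocount of 0.1 or 0.01 in place of 1, the number of members past 2 in LOVO spheroids was 1 (CDK6) in place of 0. At a threshold of 1 it was 2, and between the lines it was 5 among adherent cells and 4 among spheroids in place of 2 and 2. Of 180 alternative values of the members' log2 differences, 149 moved by less than their counting error, 25 moved by more with the same sign, and 6 turned sign. Those 6 were CCND3 in LOVO, at 0.194 as TPM, 0.0307 with TMM-style scaling and 0.0469 when centred on the median, and CDKN2A in LOVO, at 0.202, 0.0376 and 0.0528. As TPM the median of all genes stood at 0.10 in LOVO in place of -0.06, at 0.13 among adherent cells between the lines in place of 0.07, and at 0.26 among spheroids in place of 0.04. The members' medians moved by less than the SD over the members in all 20 alternatives, but as TPM the median in LOVO, which is the value of CCND1, was -0.10 in place of -0.29, and that between spheroids of the lines was 1.21 in place of 0.81. Between the lines limma called 1887 genes with a mean of at least 5 FPKM, where 8146 were tested, in place of 3564, and CDKN2B then had an adjusted p of 0.0481. For spheroids against adherent cells limma called 0 genes under each alternative too. An unadjusted limma p under 0.05 was found for 1110 of 8146 genes with a mean of at least 5 FPKM. Without a filter it was 2431 of 35734, and under the other alternatives 1502 to 1513 of 14429.

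In reads without division by gene length, in the order HCT116 adherent, HCT116 spheroids, LOVO adherent and LOVO spheroids, the CCND1 share of D-type cyclins was 91.9%, 94.3%, 53.6% and 48.5%, and that of CCND3 was 8.10%, 5.63%, 46.4% and 51.5%. The CDK4 to CDK6 ratio was then 0.616, 0.457, 0.842 and 1.81, and the CCNE1 to CCNE2 ratio 3.67, 5.38, 0.832 and 1.35. The construction, which leaves gene length in, sets these differences.

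The share of all genes past 2 followed the setting, in the order HCT116, LOVO, adherent cells between lines and spheroids between lines. Without a filter it was 0.297%, 1.15%, 4.40% and 4.24%, with a pseudocount of 0.1 it was 2.16%, 7.08%, 20.1% and 18.4%, as TPM 1.45%, 5.88%, 17.6% and 17.1%, and at a threshold of 1 it was 5.52%, 16.4%, 33.8% and 32.7%. The fit over both lines pairs the growth forms by cell line. No pairing by replicate number was made, since the labels give none and each group holds 1 library, and for the same reason no library could be left out. Reads of 94 to 309 limit CCNE2, and 0 to 8 reads limit CCND2.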
